A study of Mus musculus with 1183 samples.

Results

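The 8 genes described here, Vegfa, Vegfb, Pdgfa, Pdgfb, Hgf, Igf1, Hbegf and Tgfb1, encode secreted growth factors that act on vessels and on septation, the outgrowth of walls that divides the distal airspaces of the newborn lung. They were chosen by name, with earlier results of these data known. They make up 8 of the 18072 genes of the count table, and all 8 passed the filter on low counts. Their messages were followed in 1183 immune cells of the distal lung, 598 from a female and 585 from a male mouse, both at postnatal day 7 and both under hyperoxia, that is, breathing more oxygen than air holds, a standard way to disturb growth of the newborn lung. The labels give no strain, oxygen dose or length of exposure. Each cell had been sorted into a well and sequenced on its own. The sort was for CD45, the surface protein shared by leukocytes, except for 10 cells of plates with another gate. The labels place the cells in 16 subtypes, among them macrophage classes Mac II to Mac V, dendritic cell classes DC I to DC III and a class named IL cell. Mac I, with 1 cell, was left out, so that 15 subtypes in 2 animals gave 30 summed libraries. With 1 animal of each sex, sex and animal cannot be told apart, and no effect of hyperoxia could be estimated because both animals had it. Nearly all cells of the male came from 1 sequencing run, which also held part of the cells of the female. The other cells of the female came from other runs, so animal and run cannot be fully told apart either.

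Depth ran from 16753 to 7560179 reads per cell, and from 6024429 to 235566546 reads per summed library. Markers of the labelled types stood above all unrelated kinds of cell for 4 of 4 genes in Mac IV, DC I, DC III, neutrophils, basophils, mast cells, B cells, T cells, NK cells and IL cells. They did so for 3 of 4 in Mac III, 2 of 4 in Mac V, DC II and mast cell II, and 1 of 4 in Mac II, whose label rests on the fewest markers. Related classes were not compared with each other: Mac II to Mac V, DC I to DC III, both mast cell classes with basophils, and T, NK and IL cells. The check says nothing of the splits within these sets. Some cells also held at least 2 markers of a type that a leukocyte gate should leave out, at 20 CPM (counts per 1000000 reads of the cell) or more. These were endothelial markers in 69 cells, mesenchymal markers in 35, platelet markers in 30, epithelial markers in 11 and erythroid markers in 7, with some cells counted under more than 1 type. The labels do not mark these cells. A listed gene can also occur in a leukocyte class: in NK cells of the female Ramp2 was the only endothelial marker with reads, at 122.3 CPM. Platelet markers summed to 4943 and 8614 CPM in Mac IV of the female and the male. Leaving out marked cells may thus remove leukocytes, and whether they are leukocytes was not tested.

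These factors act through receptor tyrosine kinases, with the exception of TGF-beta 1, which acts through receptor serine/threonine kinases. VEGF-A drives the growth of endothelium, PDGF-A calls forth the myofibroblasts that build septa, and PDGF-B, classically made by endothelium, recruits pericytes to new vessels. Hepatocyte growth factor and insulin-like growth factor 1 act on epithelium and endothelium, heparin-binding EGF-like growth factor on EGF receptors, and TGF-beta 1 is stored in a latent form that must be activated. What immune cells contribute can be read here only as message, not as protein.

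Of the 8 genes, 6 had an entry in a table of RefSeq promoters (GRCm38.p6), and the 250 bases before the start are shown for the 2 genes with sharp patterns whose window lay outside annotated exons: Hgf, high in 1 granulocyte class, and Vegfb, not detected in 1 monocyte-like class. Both run 5′ to 3′ on the strand of the gene. Hgf lies at chr5:16553245-16553494 on the plus strand and Vegfb at chr19:6987652-6987901 on the minus strand.
Hgf: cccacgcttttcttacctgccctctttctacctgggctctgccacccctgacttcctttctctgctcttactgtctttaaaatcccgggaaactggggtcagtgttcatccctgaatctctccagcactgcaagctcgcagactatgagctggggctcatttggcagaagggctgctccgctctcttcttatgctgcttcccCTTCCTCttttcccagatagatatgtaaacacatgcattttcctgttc
Vegfb: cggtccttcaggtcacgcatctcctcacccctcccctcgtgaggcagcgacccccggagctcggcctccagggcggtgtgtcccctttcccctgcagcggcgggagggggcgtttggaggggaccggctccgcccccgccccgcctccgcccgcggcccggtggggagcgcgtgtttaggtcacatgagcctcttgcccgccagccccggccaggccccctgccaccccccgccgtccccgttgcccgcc
Both windows were searched on both strands for 3 short motifs that do not overlap each other: GATAA, the core bound by GATA factors, ACGTG, the core of the hypoxia response element, and GAGGAAG, part of the site of the myeloid factor PU.1. The capitals mark GAGGAAG read on the other strand, at -48 to -42 from the start of Hgf, and no other match was found in either window. Another Hgf entry, whose window lies partly in an exon and is not shown, held none of the 3 motifs. The Igf1 window, which lies in an exon and is not shown, held GAGGAAG at -60 to -54. GAGGAAG occurs in 10.6% of the 32851 windows of this length, GATAA in 22.6% and ACGTG in 16.6%. The Vegfb window is 76.4% G and C and the Hgf window 50.8%, against a median of 52.4% over all windows. A match describes letters only.

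Levels differed between subtypes for 7 of the 8 genes. The quasi-likelihood test of edgeR across all 15 subtypes gave adjusted p = 0.000861 for Igf1, 0.00132 for Hgf, 0.00301 for Vegfb, 0.00721 for Pdgfa, 0.0104 for Tgfb1, 0.0160 for Pdgfb and 0.0209 for Hbegf. Vegfa did not pass, at 0.0918, although it did so under 3 of 39 alternatives, among them DESeq2 (0.00368) and the cells of the sequencing run that both animals share (0.0386). The same test called 34.3% of the 15600 genes tested, so being called is common among genes of these cells. Igf1, Hgf, Vegfb, Pdgfa and Hbegf passed under all 39 alternatives tried. Tgfb1 did not pass on the cells of that run (0.0698). Pdgfb passed neither there (0.113) nor without the cells that hold markers of another type (0.0981).

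**Figure D1:**
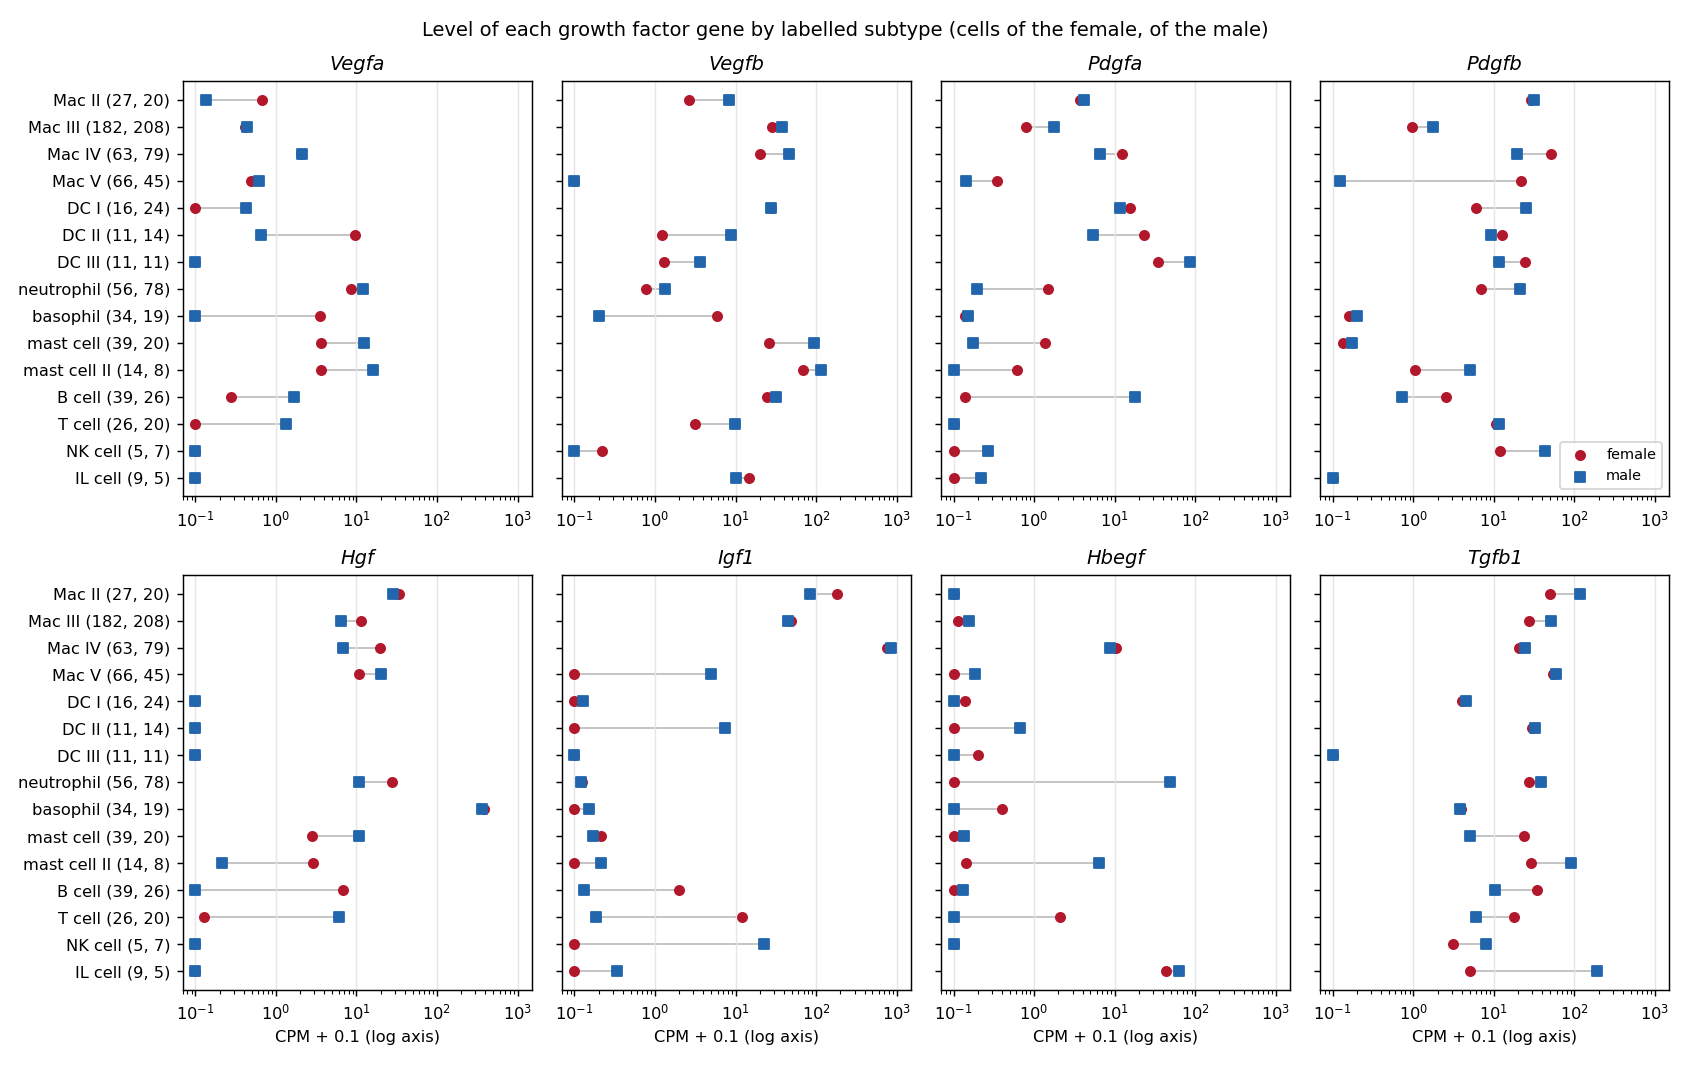
Level of each gene in each labelled subtype, as CPM + 0.1 on a log axis, for the female (circles) and the male (squares), with a line joining both animals and the number of cells in brackets. Igf1 peaks in Mac IV (759 and 859 CPM) and Hgf in basophils (379.9 and 366.3 CPM), while Vegfb has no read in Mac V of either animal.

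Igf1 was the message with the most reads of the 8, at 205921 over all cells, and came mainly from Mac IV, the macrophages marked by C1q. Mac IV held 759 CPM (female) and 859 CPM (male), and values given in pairs below keep this order. Mac II followed with 181.3 and 84.96 CPM and Mac III, the alveolar-type macrophages, with 49.4 and 45.002 CPM. Each of these 3 subtypes lay above the next in both animals, and Mac IV gave 75.6% and 83.9% of the Igf1 level summed over subtypes. Both plates of each animal showed it, with 589 and 916 CPM in Mac IV on plates of the female and 993 and 784 CPM on those of the male. Here and below, the plates of the female were sequenced in different runs, and those of the male in the same run.

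The high level of Mac IV was spread over its cells. After each cell was thinned to 100000 reads, 56 of 63 Mac IV cells of the female held at least 2 Igf1 reads (88.9%, exact 95% interval 78.4 to 95.4) and 73 of 79 of the male (92.4%, 84.2 to 97.2). In Mac III the shares were 28.2% and 29.8%, and in Mac II 14 of 27 and 7 of 20 cells. The median Mac IV cell held 589 and 919 CPM, and the highest cells 3799 and 2172 CPM. Cells of Mac IV that also held endothelial markers had 861 and 1041 CPM of Igf1, and without them Mac IV stood at 730.1 and 787 CPM.

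Outside these 3 subtypes Igf1 was rare. Mac V, the monocyte-like class, held 0 reads in 66 cells of the female, which allows up to 0.0359 CPM, and 4.93 CPM in the male, of which 75.8% came from 1 cell. Basophils, neutrophils and mast cells stood at 0.113 CPM or less in each animal, and DC III had no read. The levels of 22.2 CPM in NK cells of the male and 11.96 CPM in T cells of the female came from 1 cell each.

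The contrast of Mac III with Mac IV gave a log2 fold change of -4.06 ± 2.52 (SE, n = 2 animals per group) for Igf1, with an edgeR adjusted p of 0.803. The 2 groups did not overlap. The estimate of spread in this fit is shared over 15 subtypes. With only Mac III and Mac IV in the fit, the log2 fold change was -4.08 and the adjusted p was 0.00189, in a fit that called 12% of the genes it tested. Over all alternatives the adjusted p ran from 0.00189 to 1. The contrast of Mac IV with Mac V gave 8.28 ± 3.06 (SE) and an adjusted p of 0.393, against 0.0170 by DESeq2 and 0.0796 with only those 2 subtypes, the alternatives ranging up to 0.884. It moved to 7.35 without Mac V of the female and to 18.2 without Mac V of the male, which leaves Mac V with no Igf1 read.

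Hgf was highest in basophils, a granulocyte class that also makes histamine and type 2 cytokines. Basophils held 379.9 and 366.3 CPM, and gave 76.7% and 80.5% of the Hgf level summed over subtypes. Plates of the female gave 367.2 and 386.9 CPM, and plates of the male 395 and 332.7 CPM. At least 2 thinned reads were present in 28 of 34 basophils of the female (82.4%, exact 95% interval 65.5 to 93.2) and in 17 of 19 of the male (89.5%, 66.9 to 98.7). The median basophil held 318.5 and 236.5 CPM. Mac II came next, with 33.8 and 28.1 CPM, above every later subtype in both animals.

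Neutrophils held 27.8 and 10.6 CPM of Hgf, Mac V 10.7 and 20.2, Mac IV 19.4 and 6.77, and Mac III 11.2 and 6.33. These did not differ from their neighbours in rank beyond the gap between the animals. Without cells that hold 2 endothelial markers, neutrophils of the male stood at 1.04 CPM and Mac V of the male at 4.88 CPM, and Mac IV at 22.99 and 8.47 CPM. Neutrophils of the female held no such cell. DC I, DC II, DC III, NK cells and IL cells had no Hgf read in either animal.

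Mast cells, the tissue counterpart of basophils among IgE-binding cells, held 2.69 and 10.6 CPM of Hgf. The contrast of mast cells with basophils gave a log2 fold change of -6.01 ± 2.35 (SE, n = 2) and that of basophils with neutrophils 4.15 ± 2.15 (SE, n = 2), with edgeR adjusted p of 0.214 and 0.294. Basophils lay above the other group in both animals in each. With only the compared subtypes in the fit the adjusted p were 0.0145 and 0.0368, where 2.62% and 3.04% of the genes tested were called, and DESeq2 gave 0.0265 and 0.162. Over all alternatives they ran up to 0.587 and 0.636.

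**Figure D2:**
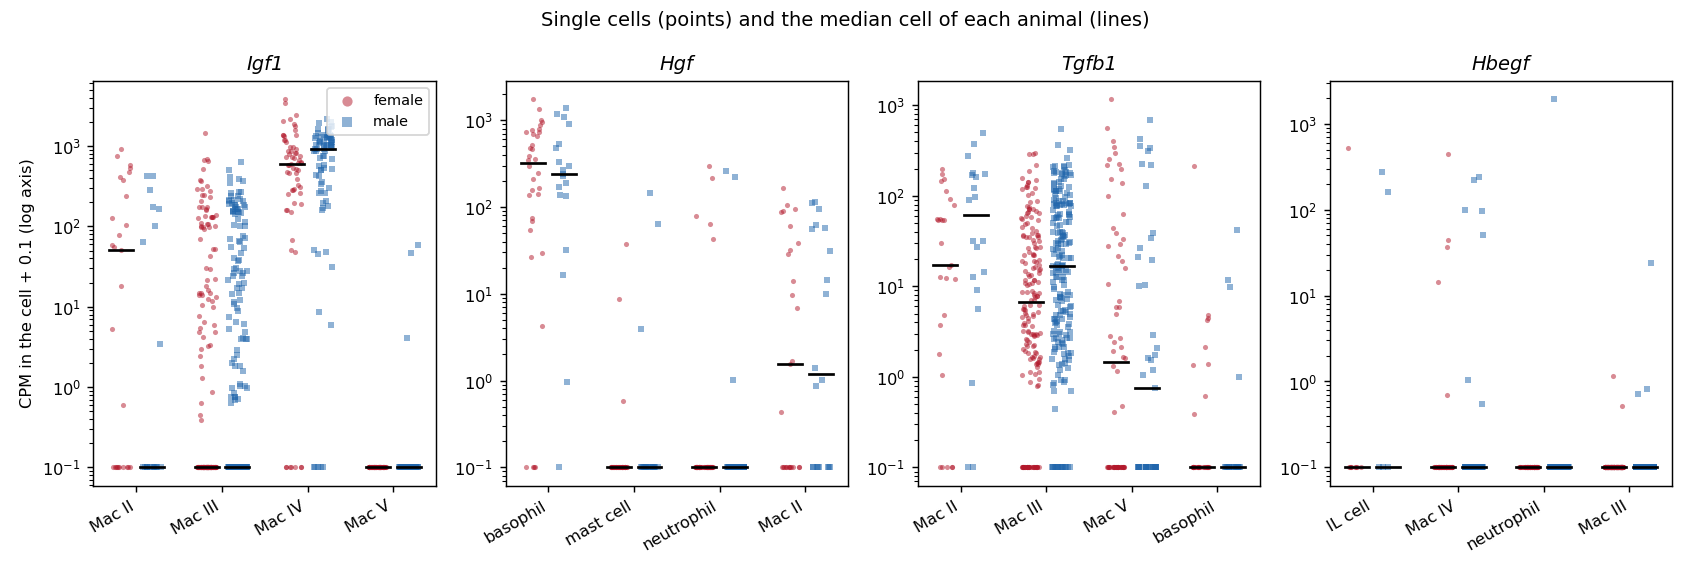
Level in single cells (points, CPM + 0.1 on a log axis) and in the median cell of each animal (lines) for Igf1, Hgf, Tgfb1 and Hbegf in 4 subtypes each, female as circles and male as squares. Igf1 in Mac IV and Hgf in basophils are high in most cells, Tgfb1 is spread widely over cells, and the only neutrophil with Hbegf sits at 1916 CPM.

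Vegfb, a VEGF family member that binds VEGFR1, was present in both large macrophage classes and not detected in monocyte-like Mac V. Mac III held 28.3 and 38.03 CPM and Mac IV 20.2 and 46.4 CPM. Mac V held 0 reads in 66 and 45 cells, which allows up to 0.0359 and 0.0652 CPM. At least 2 thinned reads were found in 30.9% and 33.2% of Mac III cells and in 22.2% and 36.7% of Mac IV cells. No group of Mac III or Mac IV overlapped Mac V.

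Vegfb was the only member called in a contrast of 2 subtypes. By counting error alone Mac III stood at least 1447-fold above Mac V, with 3 counts over both Mac V libraries as the floor. Mac IV stood at least 1499.7-fold above Mac V by the same floor. The edgeR adjusted p were 0.0129 and 0.0211. The floor does not cover the spread between cells, as single cells held up to 445 Vegfb reads in Mac III and 1031 in Mac IV. In these contrasts 0.442% and 0.167% of all genes were called. The call against Mac III was lost without Mac III of the male (0.0575), Mac V of the female (0.232) or Mac V of the male (0.197), and that against Mac IV without any 1 of its 4 libraries (0.0632 to 0.444). Neither call held on the shared sequencing run (0.0836 and 0.127). Without cells that hold markers of another type, which removes 24 of 63 and 43 of 79 Mac IV cells, Vegfb in Mac IV was 23.5 and 46.7 CPM, and the adjusted p were 0.0430 for Mac III (0.271% of genes called) and 0.0800 for Mac IV. No Mac V cell held a Vegfb read, so Mac V is without reads under each of these settings by construction.

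Neutrophils also held more Vegfb reads than Mac V, at 0.664 and 1.22 CPM, or at least 42.01-fold by the same floor of counting error. However, 1 cell of each animal gave 96.4% and 96.9% of these reads. The cell of the female is the shallowest of the data, with 16753 reads and 3 mesenchymal markers. The adjusted p was 0.0855, and 0.0318 when every cell was given equal weight (0.44% of genes called).

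The highest Vegfb levels were in mast cell II, with 69.6 and 115.2 CPM, and mast cells, with 26.004 and 92.96 CPM. Single cells weighed heavily there: 1 cell gave 65.5% and 44.9% of the mast cell II reads, and 66.4% of those of mast cells of the male. B cells held 24.4 and 31.7 CPM and DC I 27.2 and 27.5 CPM. Mast cell II lay above every other subtype within each animal. The values of neighbours from mast cell II down to DC I overlapped between the animals, whereas DC I lay above IL cells, and IL cells above T cells, in all values. Of the mast cell II cells, 9 of 14 and 3 of 8 held markers of another type, mostly endothelial, and without them mast cell II stood at 115.2 and 66.9 CPM of Vegfb. Mast cells held more than basophils in both animals (5.81 and 0.102 CPM), with a log2 fold change of 4.19 and an edgeR adjusted p of 0.210, against 0.00318 by DESeq2 and up to 0.574 under other alternatives.

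Vegfa, the main endothelial growth signal of the family, was scarce in these cells. It had 2821 reads in all, at least 1 read in 8.62% of cells, and 15.99 CPM at most. Neutrophils held 8.46 and 11.9 CPM, mast cell II 3.56 and 15.99 CPM, mast cells 3.54 and 12.3 CPM, and DC II 9.48 and 0.560 CPM. All reads of mast cell II of the male, and all those of DC II in each animal, came from 1 cell. Most reads of mast cell II of the female, and of mast cells in each animal, likewise came from 1 cell. No subtype reached 10 CPM in both animals, and Mac III, by far the most sequenced, held 0.320 and 0.340 CPM. Only 5.45% of neutrophils of the female and 7.69% of the male held 2 thinned reads, and 1 cell in each gave 46.2% and 45.6% of the reads. Without cells that hold markers of another type neutrophils stood at 4.95 and 10.7 CPM, and DC II at 15.7 and 0.824 CPM. Neutrophils under 100 CPM of Ngp, a gene of immature neutrophils, had 11.4 and 18.1 CPM of Vegfa, and those at or above it 1.17 and 0.328 CPM. The shares of neutrophils with a Vegfa read were close, at 6 of 47 and 8 of 58 cells under that level and 1 of 9 and 2 of 20 at or above it.

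**Figure D3:**
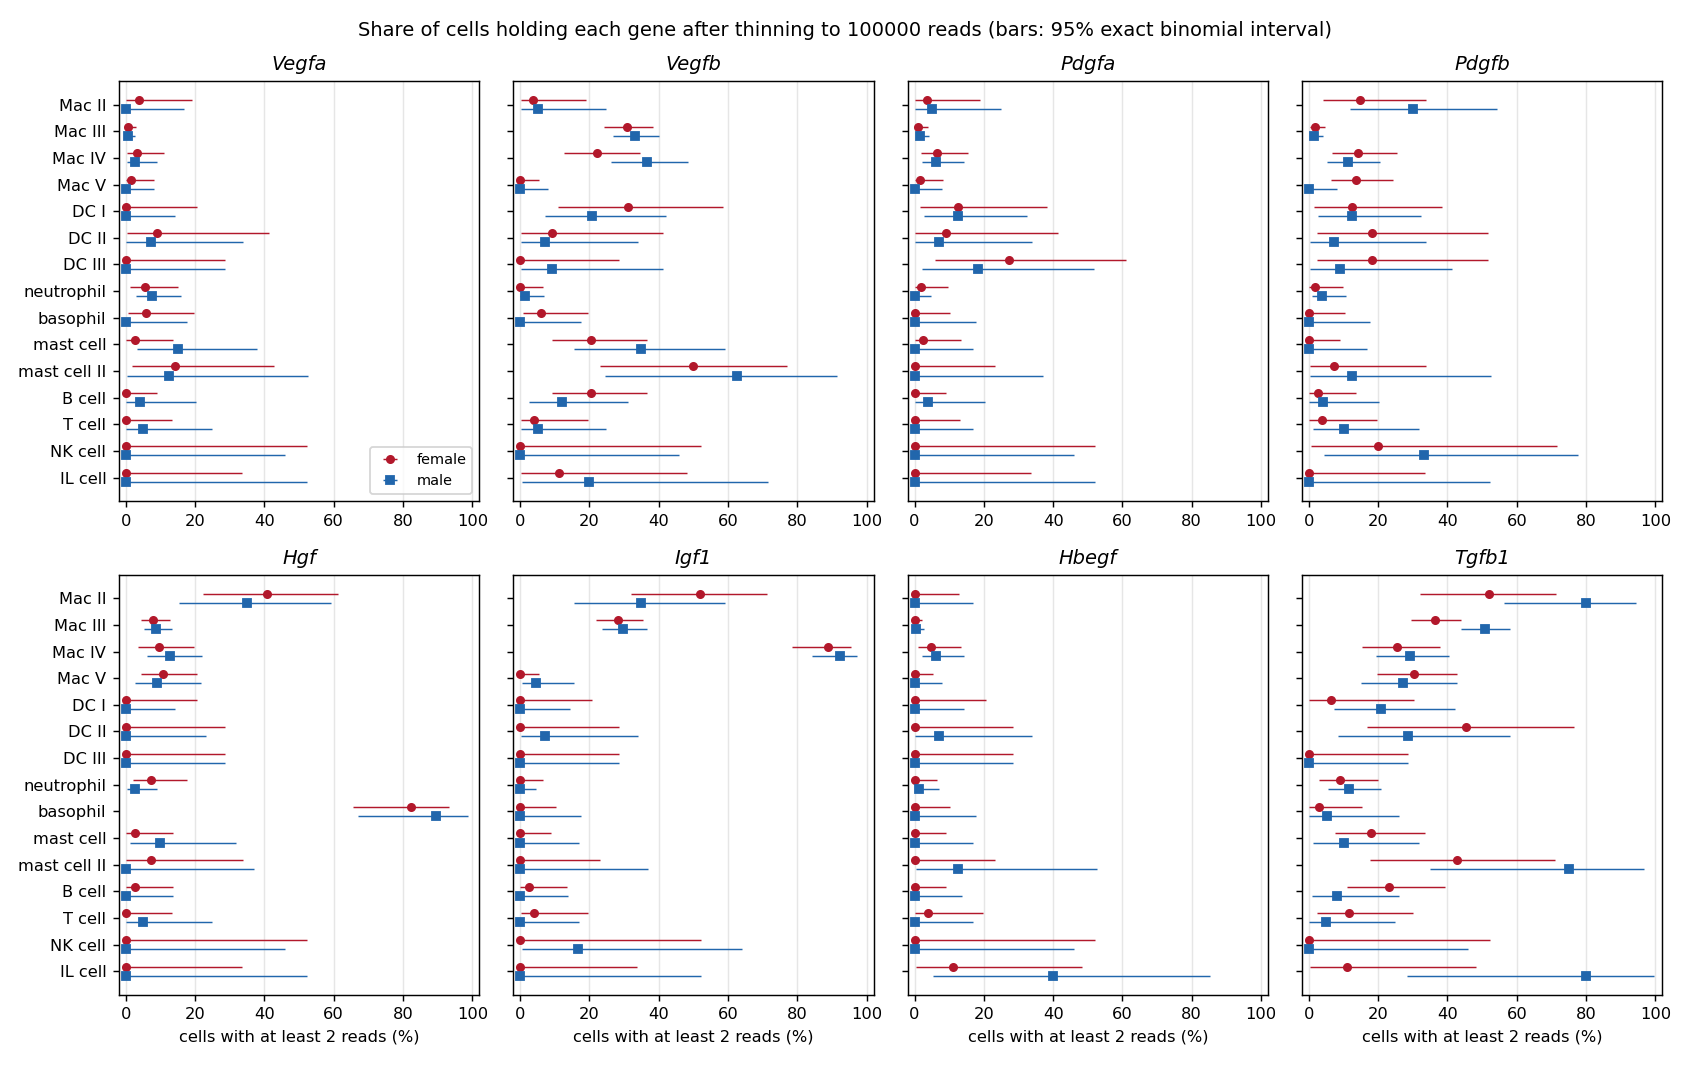
Share of cells with at least 2 reads of each gene after thinning to 100000 reads, by labelled subtype, for the female (circles) and the male (squares), with exact 95% binomial intervals as bars. Igf1 in Mac IV and Hgf in basophils lie between 82.4% and 92.4% in both animals, whereas Vegfa reaches at most 3 of 20 cells.

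Pdgfa, which signals to the forerunners of septal myofibroblasts, was highest in the dendritic class DC III in both animals. DC III, the Ccr7-bearing class, held 34.5 and 86.04 CPM and lay above DC II in both animals. DC II held 23.2 and 5.27 CPM, DC I 15.2 and 11.6 CPM, and Mac IV 12.2 and 6.51 CPM. The values of these 3 overlapped, with DC I above Mac IV within each animal. In DC I and DC II of each animal, and in Mac IV of the female, most reads came from 1 cell. The order of these 3 subtypes thus rests largely on single cells. Without cells that hold markers of another type DC II stood at 0 and 7.50 CPM, DC I at 18.5 and 4.38 CPM and Mac IV at 14.9 and 12.5 CPM, while DC III had no such cell. Every Pdgfa read of DC II of the female came from 1 cell with 2 mesenchymal markers, and in DC I of the male the cell with the most reads held 5 epithelial markers, at 226230 CPM. Few cells carried it: 3 of 11 and 2 of 11 DC III cells held 2 thinned reads. In DC III of the male 1 cell gave 78.5% of the reads, and without the top cell of each animal DC III stood at 20.7 and 20.96 CPM. B cells of the male held 17.7 CPM, of which 99.8% came from 1 cell with 2 mesenchymal markers. T cells had no read in either animal.

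Pdgfb, which recruits pericytes, was found in several subtypes, and in Mac IV and neutrophils of the male it moved with endothelial markers. Mac IV held 51.3 and 19.05 CPM, Mac II 29.1 and 31.4 CPM, NK cells 11.7 and 42.99 CPM and neutrophils 6.73 and 21.1 CPM, with overlap between all neighbours down to T cells (10.6 and 11.5 CPM). Basophils and mast cells stood at 0.102 CPM or less and IL cells at 0. In basophils against neutrophils the log2 fold change was -7.44 ± 2.30 (SE, n = 2), with an edgeR adjusted p of 0.0873, against a call by DESeq2.

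All 5 endothelial markers had reads in Mac IV and neutrophils of both animals, summing to 917 and 285.5 CPM in Mac IV and to 30.1 and 1181 CPM in neutrophils. In Mac IV, 16 of 63 and 20 of 79 cells held at least 2 of them, and those cells had 170.2 and 52.99 CPM of Pdgfb. Only 6 and 5 of the marked cells held a Pdgfb read, and 1 cell of the female held 2084 reads. Without the marked cells Mac IV stood at 17.2 and 5.66 CPM. In neutrophils of the male 7 of 78 cells were so marked, and without them Pdgfb went from 21.1 to 0.135 CPM. A single one of these held 537 Pdgfb reads, 508 Hgf reads and all 5 endothelial markers at 10583 CPM. Neutrophils of the female had no marked cell, and 97.5% of their Pdgfb came from 1 cell. In Mac II 1 of 27 and 0 of 20 cells were so marked, and without the marked cell Pdgfb of the female stood at 29.4 CPM.

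**Figure D4:**
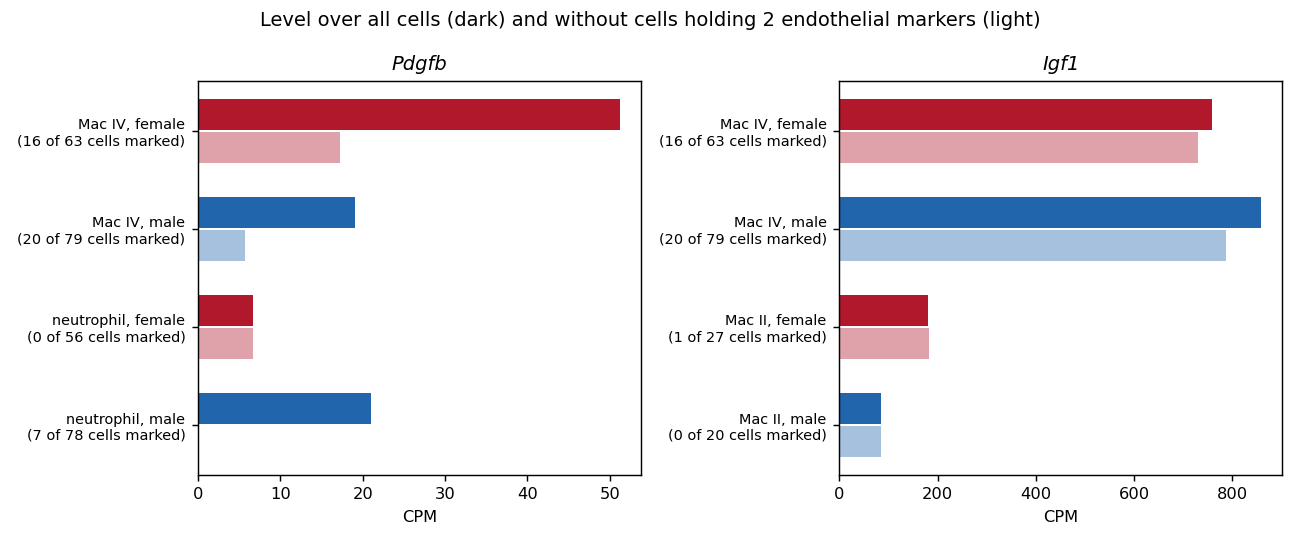
Level in CPM over all cells (dark bars) and without cells that hold 2 or more endothelial markers (light bars), for Pdgfb in Mac IV and neutrophils and for Igf1 in Mac IV and Mac II, by animal. Pdgfb of Mac IV goes from 51.3 to 17.2 and from 19.05 to 5.66 CPM, and that of neutrophils of the male from 21.1 to 0.135 CPM, while Igf1 of Mac IV moves from 759 to 730.1 and from 859 to 787 CPM.

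In Mac V the gap between the animals was wide. In the female Pdgfb stood at 21.9 CPM, with a read in 19 of 66 cells. In the male it stood at 0.0217 CPM, with a read in 1 of 45. The plates of the female gave 12.5 and 31.3 CPM, and 1 cell gave 49.3% of the reads. Only 1 of these plates was sequenced in the run of the male plates, and both values lay above that of the male. Within Mac V of the female, cells with at least as much Ace, a gene of patrolling monocytes, as Ly6c2, a gene of classical monocytes, held 40.5 CPM and the others 2.49 CPM. The log2 fold change of Mac IV against Mac V was 1.55 (adjusted p = 0.927), went from 0.614 without Mac V of the male to 10.5 without Mac V of the female, and turned to -0.0456 without cells holding markers of another type.

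Hbegf, an EGF receptor ligand shed from the cell surface, was the rarest of the 8, with reads in 32 cells (2.70%). IL cells held 43.2 and 62.3 CPM from 1 of 9 and 2 of 5 cells. Mac IV held 10.3 and 8.58 CPM, from 5 and 7 cells, against 0.0143 and 0.0552 CPM in Mac III. Most of the Mac IV reads of the female came from 1 cell, so this level says little about its other cells. In Mac IV of the male no single cell gave most of the reads. Without the cells that hold endothelial markers Mac IV stood at 12.8 and 2.34 CPM. In neutrophils of the male all 2553 reads (48.6 CPM over 78 cells) came from 1 cell, which had no endothelial and 1 mesenchymal marker, and neutrophils of the female had none. Mac III against Mac IV gave a log2 fold change of -7.92 ± 3.77 (SE, n = 2), with an edgeR adjusted p of 0.631, and 0.0189 with only those 2 subtypes in the fit.

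Tgfb1, the most widely found of the 8, had a read in 695 cells (58.7%). Mac II held 50.025 and 117.9 CPM, mast cell II 28.9 and 90.4 CPM, Mac V 54.3 and 58.8 CPM and Mac III 27.1 and 51.5 CPM. IL cells held 4.90 and 190.3 CPM, the widest gap between the animals, in 9 and 5 cells. In IL cells and in mast cell II of the male most reads came from 1 cell, with 995 and 455 reads. Neutrophils held 27.5 and 38.9 CPM, DC II 29.9 and 32.6 CPM and Mac IV 20.5 and 24.4 CPM. Without cells that hold markers of another type Mac IV stood at 27.2 and 39.3 CPM. Mac V lay above Mac III in both animals, although a larger share of Mac III cells held 2 thinned reads (36.5% and 50.96% against 30.3% and 27.3%).

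At the low end, DC III had no Tgfb1 read in 11 cells of either animal, which allows up to 0.299 and 0.192 CPM, basophils held 3.77 and 3.66 CPM, and DC I 3.90 and 4.46 CPM. Basophils, highest of all subtypes in Hgf, were thus among the lowest in Tgfb1. Basophils against neutrophils gave a log2 fold change of -3.23 ± 1.38 (SE, n = 2), with an edgeR adjusted p of 0.205, against 0.0208 by DESeq2 and up to 0.457 under other alternatives.

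Over the 7 contrasts, edgeR called 1 of 8 members in Mac III against Mac V (0.442% of all genes) and in Mac IV against Mac V (0.167%), both Vegfb. It called none in Mac III against Mac IV (0.263% of all genes), neutrophils against Mac V (0.404%), mast cells against basophils (1.71%), basophils against neutrophils (2.95%) and DC I against DC II (0.244%). An unadjusted p under 0.05 was reached by 2 members in Mac III against Mac IV (7.89% of all genes), 1 in Mac III against Mac V (9.4%), 3 in Mac IV against Mac V (10.6%), 3 in neutrophils against Mac V (13%), 2 in mast cells against basophils (16.6%), 2 in basophils against neutrophils (19.8%) and 1 in DC I against DC II (8.97%).

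DESeq2 called more genes than edgeR in each of these contrasts. In the same order it called 1 member (3.27% of the genes it gave an adjusted p), 1 (6.15%), 3 (6.34%), 2 (9.42%), 2 (16.6%), 2 (20.1%) and 0 (7.34%). With 2 libraries a group, values that do not overlap were common among all genes. They were found for 6 of 8 members in Mac III against Mac IV (58.3% of all genes), 5 in Mac III against Mac V (57.8%), 6 in Mac IV against Mac V (51.8%), 3 in neutrophils against Mac V (47.2%), 6 in mast cells against basophils (41.1%), 5 in basophils against neutrophils (43.9%) and 3 in DC I against DC II (29.9%). With only the compared subtypes in the fit, Mac III against Mac IV had 3 members called, Igf1, Pdgfb (adjusted p = 0.0177) and Hbegf, all higher in Mac IV, where 12% of the genes tested were called.

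Between the dendritic cell classes no member passed. DC I held more Vegfb (27.2 and 27.5 CPM against 1.14 and 8.69) and DC II more Tgfb1 in both animals (29.9 and 32.6 CPM against 3.90 and 4.46), with edgeR adjusted p of 0.684 and 0.570.

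Levels of different genes can be set side by side only per length. Per kilobase of annotated exon (GENCODE vM21), Igf1 in Mac IV stood at 76.7 and 86.7 CPM per kb, Hgf in basophils at 52.9 and 50.97, Vegfb in Mac IV at 12.6 and 28.9, Tgfb1 in Mac V at 10.8 and 11.7 and Pdgfb in Mac IV at 12.3 and 4.58. Vegfb reached 43.3 and 71.8 CPM per kb in mast cell II, and 57.9 in mast cells of the male. On that scale Igf1 of Mac IV stood above every other member in any subtype of the same animal, while Hgf of basophils stood above Vegfb of mast cell II in the female and below it in the male. Of the exons, 813 bases of Pdgfa overlap 6330403L08Rik on the other strand and 484 bases of Hgf overlap Gm43489 on the same strand, and how such reads were assigned is not given in the sources used here.

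Cells that held several of the factors were found in mast cell II, Mac II and Mac IV at the largest shares. At least 1 of the 8, at 2 thinned reads, was held by 93.7% and 97.5% of Mac IV cells, 24 of 27 and 18 of 20 Mac II cells and 85.3% and 89.5% of basophils, against 11 of 55 and 20 of 78 neutrophils. At least 2 were held by 49.2% and 67.1% of Mac IV cells, 16 of 27 and 12 of 20 Mac II cells, 8 of 14 and 6 of 8 mast cell II cells and 29.8% and 35.6% of Mac III cells, but by 11.8% and 5.26% of basophils, whose 1 factor was mostly Hgf. In Mac IV all 14 Vegfb cells of the female and all 29 of the male also held Igf1, where independent shares would give 12.4 and 26.8 cells. In Mac III of the male Vegfb and Tgfb1 met in 35 cells, against 35.2 from independent shares.

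Within Mac IV, Igf1 stood at 544 and 439 CPM in cells with at least 100 CPM of H2-Ab1, an MHC class II gene, and at 812 and 894 CPM in the rest. Cycling Mac IV cells held 998.5 and 956 CPM of Igf1 and the others 727 and 836. Cycling Mac III cells held 34.01 and 73.1 CPM of Vegfb and the others 27.5 and 32.2, with a read in 18 of 24 and 19 of 29 cycling cells against 44.3% and 47.5% of the others.

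Likeness of pattern was measured as the correlation of log2(CPM + 1) over the 15 subtypes between the member in 1 animal and another gene in the other animal, taking the lower of both values, over 8103 genes that reach 50 CPM in some subtype. Depth and cell numbers are shared by the points, so these values only describe. Igf1 was nearest to Scamp5 (0.828), Marco (0.819), a scavenger receptor, and Fcna (0.814), a ficolin. Hgf was nearest to C5ar2 (0.800), Cyp4f18 (0.790) and C5ar1 (0.757), where both C5ar genes encode receptors of complement C5a. Pdgfa was nearest to Cxcl16 (0.893), a chemokine, Arhgap22 (0.824) and H2-Aa (0.808), an MHC class II chain. Vegfa was nearest to Clstn1 (0.811), Slc2a3 (0.660), a glucose transporter, and Tmem40 (0.620), although its own pattern correlated at only 0.591 between the animals.

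Other genes of these pathways were counted by list. Across subtypes 17 of 23 receptors tested were called, 13 of 23 other growth factor ligands, 19 of 32 genes of processing, activation and carriers, and 5 of 15 regulators of the ligands, beside 34.3% of all genes. The median unadjusted p was 0.00697 for receptors, 0.0150 for other ligands, 0.00648 for processing genes and 0.0461 for regulators, against 0.0582 over all genes tested and 0.00124 over the 8 members. Lists and members were chosen with earlier results of these data known, so these counts and medians only describe. The receptors include genes known from endothelium that were highest in neutrophils, where 7 cells of the male held endothelial markers. Kdr stood there at 0.830 and 120.3 CPM and Eng at 0.261 and 96.4 CPM. Kdr is itself 1 of the 5 endothelial markers, so its level and the marking of these cells are not separate results. The part of such cells in these counts was not tested. Grn, encoding progranulin, was the ligand with the highest level, at 2070 and 1930 CPM in Mac IV. Areg, an EGF receptor ligand, reached 394 and 904 CPM in IL cells. Igfbp4, which binds IGF1, stood at 641 and 679.8 CPM in Mac IV.

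In the contrasts of 2 subtypes the called genes of these lists were few, and none was another ligand. Cd9, a tetraspanin that associates with the Hbegf precursor, stood at 5424 and 5203 CPM in Mac III and at 541 and 467 CPM in Mac IV, with a log2 fold change of 3.45 ± 0.43 (SE, n = 2) and an edgeR adjusted p of 0.00113. It was also called against Mac V, at 405.3 and 380.2 CPM there, with an adjusted p of 0.000211. In basophils Cd9 reached 2159 and 2839 CPM, above mast cells (192.96 and 237.8 CPM) and neutrophils (629.04 and 696.9 CPM), with adjusted p of 4.5e-05 and 0.0133.

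Zfp36l1, which binds AU-rich messages, was lower in Mac III (14.03 and 10.5 CPM) than in Mac IV (203.4 and 227.3 CPM), with an edgeR adjusted p of 0.00316. Itgb1, an integrin chain of receptors that can bind latent TGF-beta, was higher in basophils (828 and 726 CPM) than in mast cells (133.9 and 111.8 CPM) or neutrophils (92.7 and 148.9 CPM), with adjusted p of 0.00918 and 0.0120.

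Another 4 genes were called between basophils and neutrophils. Thbs1, thrombospondin 1, an activator of latent TGF-beta, stood at 1911 and 2062 CPM in neutrophils and at 0.0810 and 0 CPM in basophils, with an edgeR adjusted p of 0.00759. St14, the protease matriptase, which can activate pro-HGF, had no read in neutrophils. Basophils, the class with the most Hgf, held 66.9 and 50.5 CPM of it (edgeR adjusted p = 0.0494). By counting error alone that is at least 1964-fold more, with 3 counts over both neutrophil libraries as the floor. Acvrl1, a receptor of the TGF-beta family that is known from endothelium, stood at 0.0405 and 0.152 CPM in basophils and 27.1 and 139.3 CPM in neutrophils (adjusted p = 0.0264), where 7 of 78 cells of the male and none of the female held at least 2 endothelial markers. Igf2r, the receptor that clears IGF2, stood at 16.3 and 61.4 CPM in neutrophils, with 2 reads in all basophils (adjusted p = 0.0373).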

How the data were processed

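Raw read counts per gene and cell were used as the authors deposited them, whole numbers over 18072 genes and 1183 cells, each cell being 1 sample. Per the submitters' processing notes, STAR 2.5.2b and HTSeq 0.10 were used. Those notes name GRCh38, a human build, for these mouse samples, so the mouse build and annotation are not given in the sources used here. The labels' protocols name a plate-based library with Tn5 transposase and no molecular identifiers, so copies of 1 molecule count separately. Levels are CPM of counts summed per subtype and animal. Symbols beginning with Rpl, Rps or mt- do not occur in the table.

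Shares of cells count cells with at least 2 reads after thinning to 100000 reads, which left out 5 shallower cells. Intervals are exact at 95% (Clopper-Pearson for shares) and a count of 0 is bounded by 3 counts. Both cover counting error only.

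Summed counts entered edgeR 4.0.16 (R 4.3.3) with its quasi-likelihood test, TMM scaling, filterByExpr and 1 coefficient per subtype in a fit of 30 libraries, and p-values were adjusted by Benjamini-Hochberg over 15600 genes, called under 0.05. They measure the spread between 2 animals. DESeq2 1.42.0, other scaling, no filter, the animal as a block, cells scaled alike, the shared run, only the compared subtypes and each library left out (with a coarser dispersion grid) were alternatives. The fitting was tested on simulated data. Subtypes are paired because they come from the same animal, and their deviations correlated at a median of 0.0493 (-0.0350 to 0.148 over 105 pairs of subtypes, 12496 genes).

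The members and lists were chosen with earlier results of these data known. The text names all members, the 3 genes nearest to each in pattern (given for 4 members), the highest of each list and every list gene called in a contrast. Samples at normal oxygen were not analysed here.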

Additional observations from a re-analysis of the deposited data

Results flagged for a closer look

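For 3 contrasts the animals pointed in opposite directions by at least 1 on the scale of log2(CPM + 0.5), and these differences between the animals were not tested. Pdgfb in Mac III minus Mac V was -4.04 in the female and 2.05 in the male. Pdgfb in neutrophils minus Mac V was -1.63 in the female and 5.37 in the male. Both follow the levels of Mac V, 21.9 CPM in the female and 0.0217 in the male, and in the second the neutrophils of the male held 21.1 CPM with cells that carry endothelial markers and 0.135 without them. Vegfb in basophils minus neutrophils was 2.44 in the female, where basophils held 5.81 CPM, and -1.51 in the male, where they held 0.102 CPM, and 72.1% of the reads of the female came from 1 cell.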

How the results depend on the processing

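With the animal as a replicate block, 7 members were called across all 15 subtypes, as without it, and the block changed no call of a member in any contrast. Leaving out 1 library at a time gave 7 to 8 members called across subtypes (8, Vegfa included, without basophils of the female), 0 to 1 in Mac III against Mac V, 0 in each refit of Mac IV against Mac V and 0 in the other 5 contrasts. DESeq2 called more genes in all than edgeR in each contrast. In Mac III against Mac IV, DESeq2 called 1 member (491 genes in all) and the fit of only those subtypes 3 (1711 genes). Mac III against Mac V had 0 on the shared sequencing run. Mac IV against Mac V had 0 on the shared run, 0 without cells holding markers of another type (an alternative chosen after seeing the data) and 3 by DESeq2 (931 genes). Neutrophils against Mac V had 1 with every cell given equal weight and 2 by DESeq2 (1384 genes). Mast cells against basophils had 2 by DESeq2 (2441 genes) and 1 with only those subtypes (2.62% of genes), and basophils against neutrophils likewise 2 (2950 genes) and 1 (3.04%). The log2 fold change of Pdgfb in Mac IV against Mac V turned to -0.0456 without cells holding markers of another type. Restricting to CD45 plates and leaving out IL cells, NK cells and mast cell II, also chosen after seeing the data, changed no count of members by over 1.5 times. Groups of 2 animals and subtypes of few cells limit all calls, and where 1 cell holds most reads a level says little about its subtype.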
